A study of Mus musculus with 19 samples.

Results

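Kit, Cd34, Myb, Sox4, Flt3, Meis1, Hoxa9, Myc, Egfl7 and Adgrg1 are genes of haematopoietic stem and progenitor cells, and their transcripts were followed in monocytes sorted from mouse bone marrow. The 10 genes were picked by name as stem and progenitor genes, not by a threshold on any value, but with earlier results of these data known. The share of them called is therefore a description. Of the 50854 genes with counts, 18652 had a mean of at least 1 read per library and were tested, and all 10 genes were among these. The RNA was sequenced in bulk, in 19 libraries of 5 groups, from female REP mice of 8 to 12 weeks, which carry fluorescent reporters for several chemokine receptors. Judged by these reporters, CCR1/2+ve monocytes express both CCR1 and CCR2, and CCR2+ve monocytes express CCR2 without CCR1. In the resting state 4 libraries were of CCR1/2+ve and 4 of CCR2+ve cells, in the inflamed state 3 and 4 respectively, and a further 4 carry the label inflamed CCR1. According to the methods of the study, inflammation was induced with pumps under the skin that released IL-3, IL-6, GM-CSF and IFN-α, while the labels give only the words resting and inflamed. Nothing in the labels says that the libraries of a group came from separate animals, so the p-values measure only the spread between these libraries.

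Blood cells arise from haematopoietic stem cells through progenitors that gradually lose the capacity to form other lineages. Monocytes descend from granulocyte and monocyte progenitors or from monocyte and dendritic cell precursors. Stem and early progenitor cells are recognised by cytokine receptors such as KIT and FLT3 and by surface proteins such as CD34. Their state is maintained by transcription factors including MYB, MEIS1 and HOXA9. Most of these transcripts decline as cells mature, but FLT3 persists in the dendritic cell lineage, and KIT in mast cells. In bulk RNA, fewer cells of a type and less RNA per cell cannot be told apart.

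Promoters of 4 genes called in opposite directions in resting monocytes are shown here, Kit and Myb being higher and Flt3 and Meis1 lower in CCR1/2+ve than in CCR2+ve monocytes. Each is the part of the 250 bases before the RefSeq start (assembly GRCm38.p6) that lies outside annotated exons, written on the strand of the gene. Capitals mark a match to the ETS core GGAAGT, which reads ACTTCC on the other strand.
Kit, chr5:75574737-75574915, + strand: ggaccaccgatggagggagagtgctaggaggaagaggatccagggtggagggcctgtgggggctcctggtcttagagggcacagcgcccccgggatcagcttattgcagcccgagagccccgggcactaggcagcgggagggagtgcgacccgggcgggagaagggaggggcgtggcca
Myb, chr10:21160985-21161234, - strand: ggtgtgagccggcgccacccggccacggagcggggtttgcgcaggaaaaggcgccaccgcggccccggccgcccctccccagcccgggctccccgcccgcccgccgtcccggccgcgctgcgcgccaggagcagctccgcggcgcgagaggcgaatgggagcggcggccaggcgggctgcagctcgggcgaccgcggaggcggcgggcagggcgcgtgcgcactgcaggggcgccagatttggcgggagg
Flt3, chr5:147400490-147400739, - strand: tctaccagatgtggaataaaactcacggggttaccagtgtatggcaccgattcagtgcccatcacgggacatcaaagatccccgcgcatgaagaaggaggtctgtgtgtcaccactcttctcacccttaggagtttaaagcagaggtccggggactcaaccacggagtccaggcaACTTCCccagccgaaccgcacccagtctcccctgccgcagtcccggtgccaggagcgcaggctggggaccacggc
Meis1, chr11:19018986-19019219, - strand: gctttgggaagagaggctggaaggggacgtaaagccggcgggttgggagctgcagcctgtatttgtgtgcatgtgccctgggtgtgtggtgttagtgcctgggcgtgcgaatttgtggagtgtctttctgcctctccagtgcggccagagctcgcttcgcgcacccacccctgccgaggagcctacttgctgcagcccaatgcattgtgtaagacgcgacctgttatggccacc

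The 4 promoters were rich in G and C, with 69.3% in the printed bases of Kit, 81.2% in Myb, 59.2% in Flt3 and 60.3% in Meis1, beside a median of 52.4% over all 32851 promoter windows of RefSeq. The Myb stretch held 40 CpG dinucleotides, and those of Kit, Flt3 and Meis1 held 10, 13 and 12. Short motifs, none of which contains another, were searched on both strands of the promoters of the 9 genes with an entry. A GATA site (the letters GATA between an A or T before and an A or G after) was in the windows of Cd34 and Hoxa9 and in all 3 windows of Egfl7, and in 26.5% of all windows. The ETS core was in those of Flt3 and Meis1 and in 2 of the 3 of Egfl7, at positions -75 and -13 for Flt3 and Meis1, and in 19.7% of all windows. A MEIS site (TGACAG, in 15.9% of all windows) was matched in 1 window of Egfl7. A MYB site (AAC after a C or T, followed by GG or TG, in 23.7% of all windows) was matched in 1 window each of Egfl7 and Adgrg1, the match in Egfl7 overlapping a GATA match. No E-box (CACGTG, in 6.02% of all windows) was matched in the windows of the 9 genes, and none of the motifs in those of Kit, Myb and Sox4. The match of Meis1 lies in the bases left out above because they overlap an exon.

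Reads counted on genes ranged from 22268658 to 30502009 over the 19 libraries, with a median of 23706580. Levels are given as CPM (reads of a gene per 1e6 reads), scaled by the TMM method, and a group with 3 reads or fewer in all its libraries is treated as at the floor of detection. The reads carry no molecular identifiers, so floors and intervals cover counting error only.

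The sorted cells were checked against marker lists before the 10 genes were read. Over 13 monocyte genes, the summed level was 33329 to 46521 CPM in resting CCR1/2+ve libraries, 49402 to 56887 CPM in resting CCR2+ve libraries, 55402 to 59589 CPM in inflamed CCR1/2+ve libraries and 51021 to 62438 CPM in inflamed CCR2+ve libraries. In the 4 libraries labelled inflamed CCR1 it was 7871 to 12497 CPM, and mean Ccr2 was 5.82 ± 2.56 CPM (SD, n = 4), beside 633 to 1251 CPM in the other groups. Ccr1 itself was at 38.0 ± 4.60 CPM (SD, n = 4) there, below the 75.1 to 310 CPM of the other groups. Ccr1 RNA was counted in CCR2+ve monocytes too, with means of 75.1 CPM in resting and 209 CPM in inflamed libraries. In CCR1/2+ve monocytes the means were 112 and 310 CPM. Genes of early granules, which granulocyte and monocyte progenitors make, summed to 55259 to 61990 CPM in the libraries labelled inflamed CCR1 and to 356 to 6819 CPM in all others. Mature neutrophil genes summed to 104964 to 153572 CPM there and to 842 to 3739 CPM elsewhere. These libraries therefore go against the label monocytes, and the labels' protocol describes the sorting of CCR1/2 or CCR2-only monocytes alone. They are called the libraries labelled inflamed CCR1 and are compared separately. No test within 1 pair of the other groups uses them, though they entered the filter on low counts and the scaling of CPM.

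**Figure D1:**
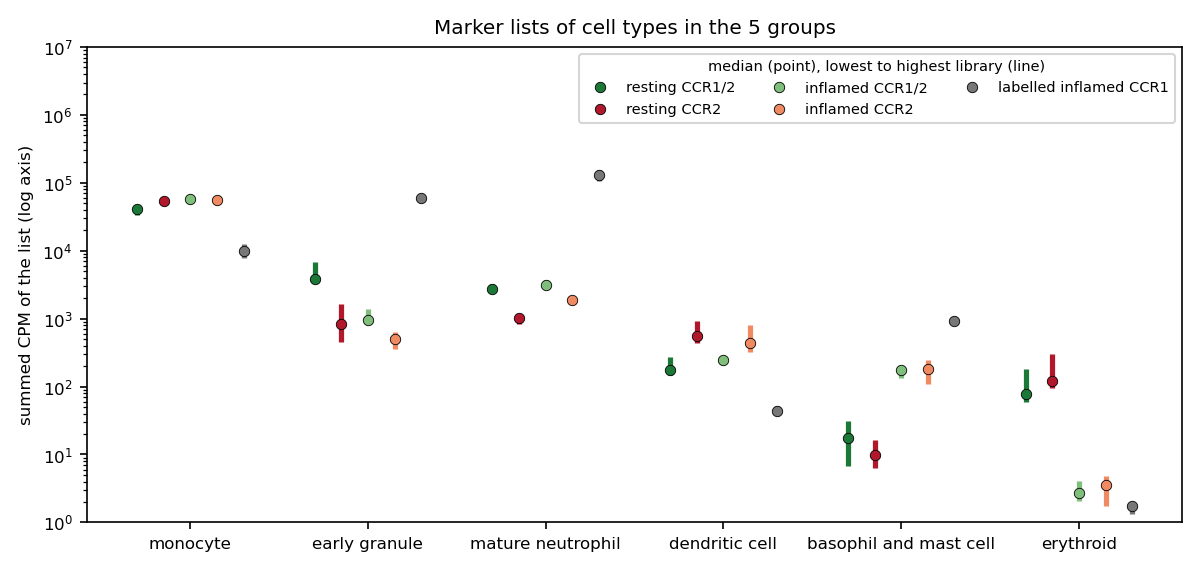
Summed levels of 6 marker lists in CPM (log axis) in the 5 groups. Points are the median library and lines run from the lowest to the highest library. The libraries labelled inflamed CCR1 lie lowest for monocyte genes and highest for early granule and mature neutrophil genes.

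Per kilobase of exon, Myc, a transcription factor that drives growth, was the most abundant of the 10 genes in resting monocytes, with a mean level of 13.3 CPM per kb in CCR1/2+ve and 8.44 CPM per kb in CCR2+ve monocytes. In resting CCR2+ve monocytes the mean level of Flt3 followed with 5.21 CPM per kb, whereas in resting CCR1/2+ve monocytes Myb (2.26 CPM per kb) and Cd34 (2.21 CPM per kb) came next. Kit was low in both, with means of 0.384 and 0.0898 CPM per kb. The libraries labelled inflamed CCR1 had mean levels of 42.5 CPM per kb for Myc, 17.9 for Kit and 10.2 for Myb, each the highest of the 5 groups. Sox4, Hoxa9, Egfl7 and Adgrg1 stayed below 10 CPM in every group, so their values rest on few reads.

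**Figure D2:**
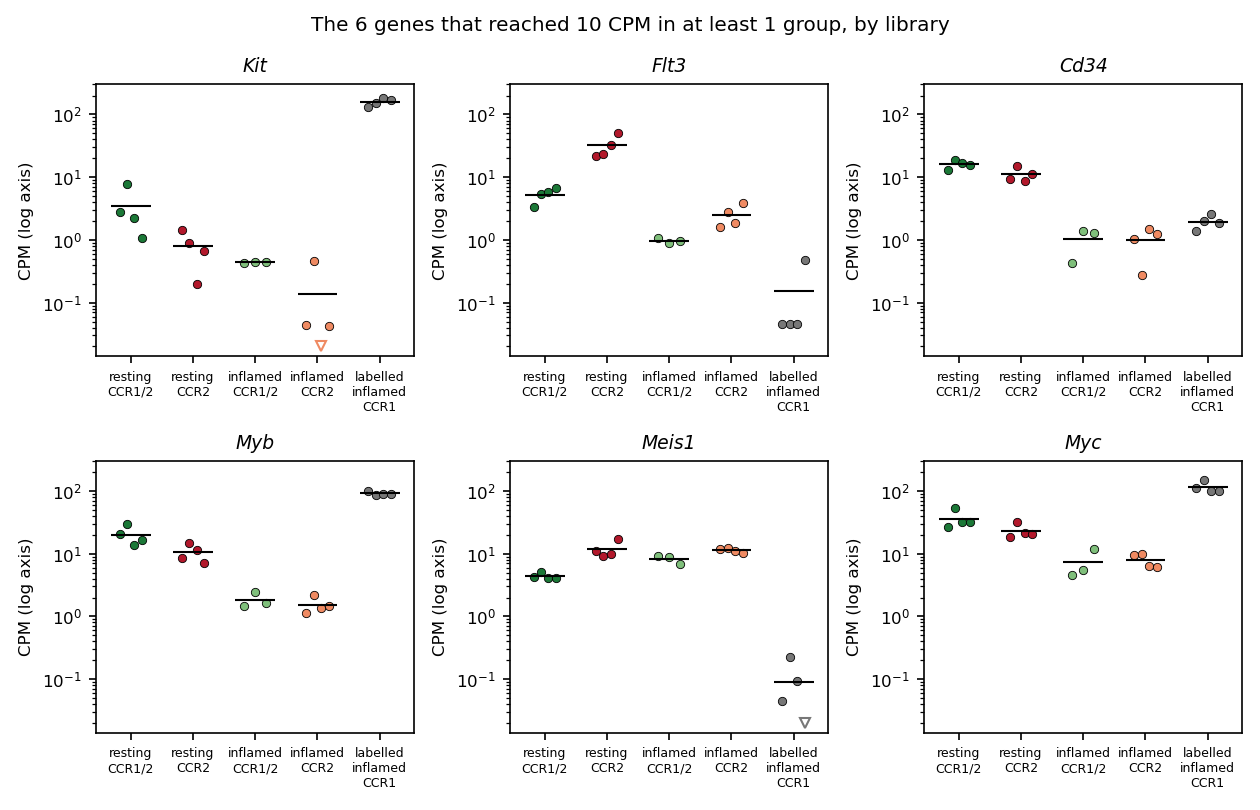
Levels of the 6 stem and progenitor genes that reached 10 CPM in at least 1 group (CPM, log axis). Points are libraries, lines are group means and an open triangle at the bottom marks a library with 0 reads. Kit, Myb and Myc are highest in the libraries labelled inflamed CCR1, Cd34 in the resting groups, and Flt3 in resting CCR2+ve monocytes.

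In resting bone marrow, the first comparison asked how CCR1/2+ve monocytes differ from CCR2+ve monocytes. The 10 genes did not move in 1 direction. Kit, Myb and Egfl7 were higher in CCR1/2+ve monocytes, by 4.54-fold, 2.03-fold and 3.18-fold, and Flt3 and Meis1 were lower, by 5.76-fold and 2.54-fold. A gene was called when edgeR's quasi-likelihood test gave a Benjamini-Hochberg adjusted p (edgeR adjusted p from here on) below 0.05 and the log2 fold change was at least 1 in size. By this rule 5 of the 10 genes were called, 3 higher and 2 lower, beside 4.25% of all genes tested, of which 2.34% were higher and 1.9% lower. The median log2 fold change of the 10 genes was 0.67, beside 0.03 over all genes tested.

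Among the receptors, Kit, the receptor of stem cell factor, was at 2.76, 7.64, 2.20 and 1.08 CPM in resting CCR1/2+ve libraries 1 to 4. In resting CCR2+ve libraries 1 to 4 it was at 1.45, 0.892, 0.195 and 0.665 CPM. The highest library was replicate 2 of the CCR1/2+ve monocytes, and the lowest CCR1/2+ve library was below the highest CCR2+ve library. The log2 difference was 2.18 ± 0.63 (SE, edgeR adjusted p = 0.0325), and the exact two-sided permutation test gave p = 0.057. The call was lost without CCR1/2+ve replicate 2 (log2 difference 1.38, edgeR adjusted p = 0.123), and without CCR2+ve replicate 2, 3 or 4 (edgeR adjusted p = 0.067, 0.0709 and 0.103).

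Flt3, the receptor of FLT3 ligand, which dendritic cell progenitors depend on, went the other way. It was at 3.38, 5.38, 5.72 and 6.63 CPM in CCR1/2+ve libraries and at 22.0, 23.6, 33.0 and 50.0 CPM in CCR2+ve libraries. Every CCR2+ve library exceeded every CCR1/2+ve library, and the log2 difference was -2.52 ± 0.26 (SE, edgeR adjusted p = 9.41e-05, exact permutation p = 0.029, the smallest that 4 against 4 libraries allow). The call held without any 1 of the libraries.

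The surface glycoprotein Cd34 was at 12.9, 18.8, 17.1 and 15.7 CPM in CCR1/2+ve libraries and at 9.33, 15.1, 8.63 and 11.4 CPM in CCR2+ve libraries. The groups overlapped through CCR2+ve replicate 2, and the log2 difference of 0.61 ± 0.18 (SE, edgeR adjusted p = 0.0363) was under the fold threshold. Adgrg1, an adhesion G protein-coupled receptor (GPR56) of stem cells and cytotoxic lymphocytes, had 5, 68, 17 and 44 reads in CCR1/2+ve libraries and 2, 20, 8 and 3 reads in CCR2+ve libraries. Replicate 2 was highest in both groups. The log2 difference of Adgrg1 was 1.84 ± 0.74 (SE, edgeR adjusted p = 0.118) and was not called, while with replicate numbers as a block it was 1.85 (edgeR adjusted p = 0.00795) and was called. Egfl7, a secreted protein of endothelial cells whose intron holds the microRNA gene Mir126a, had 27, 41, 19 and 23 reads in CCR1/2+ve libraries and 3, 17, 7 and 4 reads in CCR2+ve libraries. These groups did not overlap, and the log2 difference was 1.67 ± 0.51 (SE, edgeR adjusted p = 0.0399, exact permutation p = 0.029). Leaving out 1 library ended the call of Egfl7 for CCR1/2+ve replicates 1, 2 and 4 and CCR2+ve replicates 1, 3 and 4, with edgeR adjusted p from 0.0501 to 0.119. About 11.2% of the exon length of Egfl7 is shared with other annotated genes, Agpat2 among them, so its reads are uncertain.

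**Figure D3:**
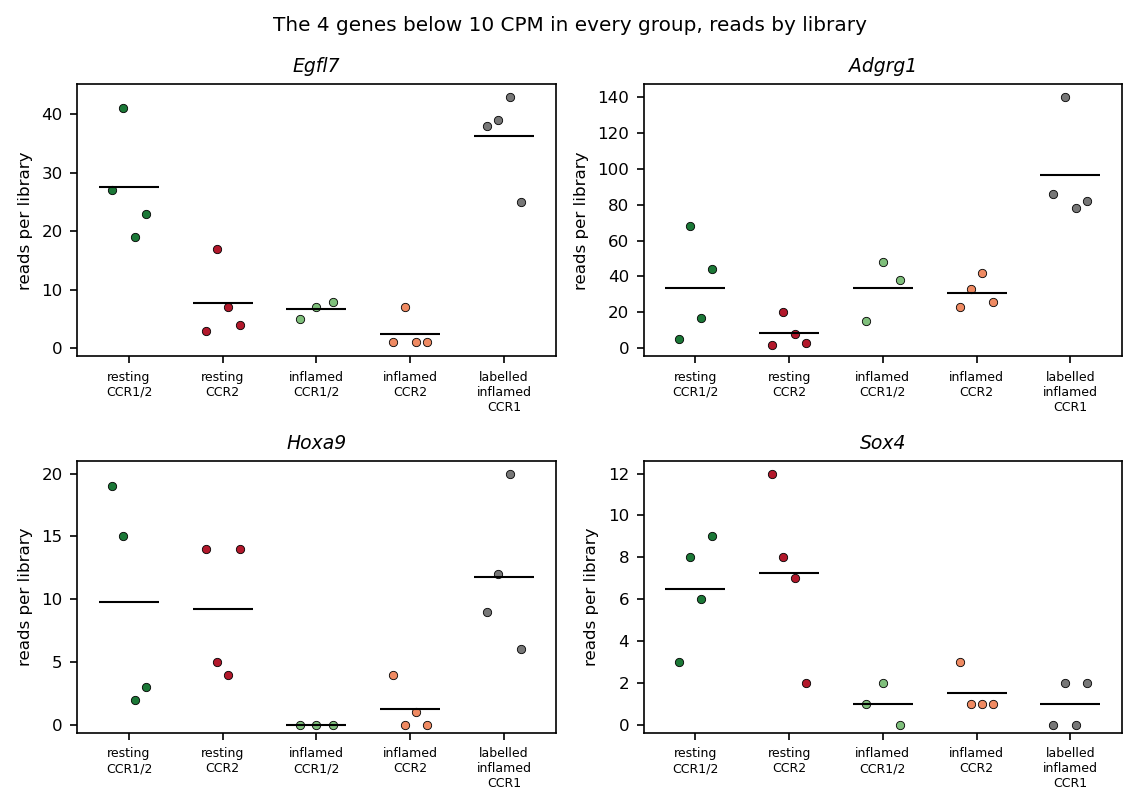
Reads per library (linear axes) of Egfl7, Adgrg1, Hoxa9 and Sox4, the 4 genes that stayed below 10 CPM in every group. Points are libraries, without normalization, and lines are group means. All resting CCR1/2+ve libraries have more Egfl7 reads than any resting CCR2+ve library (19 to 41 against 3 to 17), and Hoxa9 has 0 reads in all inflamed CCR1/2+ve libraries.

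Among the transcription factors, Myb, which progenitors need to proliferate, was at 20.4, 29.7, 14.0 and 16.7 CPM in CCR1/2+ve libraries and at 8.48, 14.8, 11.5 and 7.11 CPM in CCR2+ve libraries. Only CCR1/2+ve replicate 3 and CCR2+ve replicate 2 overlapped, and the log2 difference was 1.02 ± 0.27 (SE, edgeR adjusted p = 0.0213, exact permutation p = 0.057). This is close to the fold threshold. The call of Myb was lost without CCR1/2+ve replicate 2 (log2 difference 0.76, edgeR adjusted p = 0.0546), and without CCR2+ve replicate 1, 3 or 4 (0.95, 1.06 and 0.86). Meis1, a homeodomain cofactor of HOX proteins, was at 4.20, 5.01, 4.12 and 4.16 CPM in CCR1/2+ve libraries and at 11.2, 9.17, 10.0 and 16.9 CPM in CCR2+ve libraries. The groups did not overlap, and the log2 difference was -1.35 ± 0.19 (SE, edgeR adjusted p = 0.00056, exact permutation p = 0.029). The call of Meis1 held without any 1 of the libraries. Of its exon length, 18.3% is shared with unnamed gene models, which had 14 reads or fewer in any group. How reads in the shared stretches were counted is not known, so these low counts do not show that the overlap was without effect.

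Myc was at 26.3, 54.1, 32 and 31.9 CPM in CCR1/2+ve libraries and at 18.2, 31.6, 21.6 and 20.4 CPM in CCR2+ve libraries. Replicate 2 was the highest of both groups, and the log2 difference of 0.73 ± 0.24 (SE, edgeR adjusted p = 0.0559) passed neither threshold. Hoxa9 had 2 to 19 reads in CCR1/2+ve libraries and 4 to 14 in CCR2+ve libraries, a log2 difference of -0.12 ± 0.73 (SE, edgeR adjusted p = 0.945). Sox4 had 3 to 9 and 2 to 12 reads, a log2 difference of -0.32 ± 0.62 (SE, edgeR adjusted p = 0.793). For both genes the reads are too few to show a difference of the size seen for Myc. Sox4 shares 54.6% of its exon length with Gm26735 on the other strand, which had 0 reads in every library. Whether reads in the shared stretch were counted for either gene is not known. The 0 reads therefore do not show that the overlap was without effect, and the low Sox4 counts are uncertain in all groups.

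Groups that did not overlap were found for Flt3, Meis1 and Egfl7, 3 of the 10 genes, beside 20.2% of all genes tested. The libraries numbered 2 were the highest for 7 of the 10 genes among the CCR1/2+ve libraries and for 5 among the CCR2+ve libraries. With both left out, an alternative chosen after the data were seen, 3 of the 10 genes were called. These were Flt3 (log2 difference -2.67), Meis1 (-1.53) and Egfl7 (2.11), while Kit was at 1.46 (edgeR adjusted p = 0.148) and Myb at 0.99 (edgeR adjusted p = 0.00962). With the replicate numbers as a block, 6 of the 10 genes were called, Adgrg1 being the addition.

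Marker genes of other stages and lineages differed between the resting groups as well. Beside the lists that follow, 2.34% of all genes tested were called higher and 1.9% lower. All 6 early granule genes that were tested had higher levels in CCR1/2+ve monocytes, among them Fcnb (log2 difference 2.43), the ficolin of granulocyte precursors, and Prtn3 (1.78), proteinase 3. Their summed level was 4197, 6819, 3514 and 3310 CPM in CCR1/2+ve libraries 1 to 4 and 770, 1658, 896 and 452 CPM in CCR2+ve libraries. The libraries numbered 2 were again the highest in both groups. Of 19 proliferation genes, 8 were higher and 0 lower, including Bub1 (1.20), a mitotic checkpoint kinase, and Rrm2 (1.05), which makes deoxynucleotides. Of 12 mature neutrophil genes, 5 were higher, S100a9 by a log2 difference of 4.08.

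Of 12 dendritic cell genes, 7 were lower and 0 higher in CCR1/2+ve monocytes, Flt3 being 1 of them, together with Batf3 (-1.82) and Tcf4 (-1.10), transcription factors of conventional and plasmacytoid dendritic cells. The summed level of the list was 147 to 275 CPM in CCR1/2+ve and 438 to 909 CPM in CCR2+ve libraries. Cd209a, a lectin of monocyte-derived and dendritic cells, had means of 13.1 and 88.5 CPM, and H2-Ab1, a class II chain, 41.5 and 226 CPM. Defining markers of dendritic cell subsets were low in both groups, with means of 0.878 and 0.877 CPM for Zbtb46, 0.707 and 0.931 CPM for Xcr1 and 0.891 and 2.48 CPM for Siglech. Of 13 monocyte genes, 2 were lower, Cx3cr1 (-1.40) and Fcgr1 (-1.15). Of the remaining lineages, 1 of 7 basophil and mast cell genes (Hdc, 1.41) and 1 of 10 B cell genes (Cd79a, 1.12) were higher. Among 8 T and NK cell genes, 2 were lower (Ncr1, -3.97, and Klrb1c, -2.78), and 0 of 10 erythroid, 0 of 6 megakaryocyte and 0 of 8 endothelial genes were called. The part of these cells in the levels of Kit, Myb, Egfl7, Flt3 and Meis1 was not tested.

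Most other genes of the same pathways were not called in the resting comparison, where 4.25% of all genes tested were called. At that share, a short list with 0 called is not set apart from other genes. Of 18 progenitor transcription factors such as Runx1 and Lyl1, 0 were called, and of 18 signalling genes downstream of KIT and FLT3, 0 were called. Among 20 further progenitor surface genes, Prom1 (log2 difference 4.84), which encodes CD133, was higher and Ly6a (-1.62), the stem cell antigen Sca-1, was lower. Of 12 Hox and TALE cofactor genes, 1 was lower, and of 5 SOX factors 0 were called. The 15 MYB partners and targets had 2 higher (Prtn3 and Mybl1, at 1.78 and 1.87) and 1 lower (Cebpb, at -1.33). Within the MAX network, Mxd3 (1.08) was higher and Mxd4 (-1.02) lower of 11 genes, both partners of MAX that oppose MYC, and 0 of 19 MYC target genes were called. Of 11 adhesion G protein-coupled receptors, Adgrg3 (2.14), a relative of Adgrg1, was higher. Of 9 NOTCH pathway genes, on which EGFL7 has been reported to act, Hes1 (-2.08) was lower. The medians of these lists lay between -0.55 and 0.20, beside 0.03 over all genes.

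**Figure D4:**
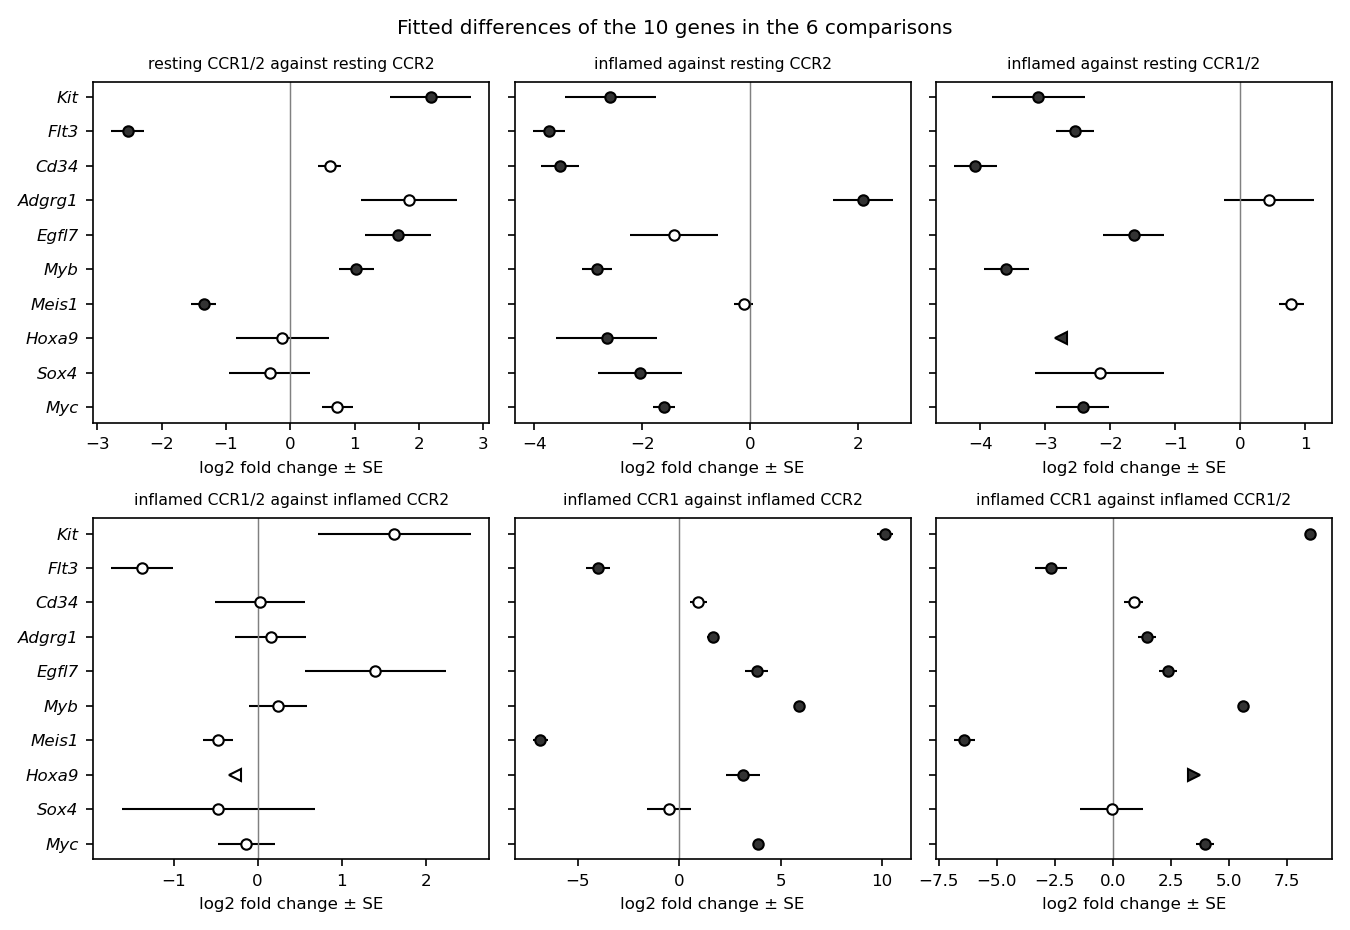
Log2 fold changes of the 10 genes in 6 comparisons with their standard errors. Filled points passed both thresholds, open points did not, and triangles give a bound for Hoxa9 where inflamed CCR1/2+ve libraries have 0 reads. The horizontal axes differ in range. Points for Kit reach 10.14 in the libraries labelled inflamed CCR1, and no gene is called between the inflamed populations.

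The next comparisons asked what changed with inflammation within each population. Most of the 10 genes were lower in inflamed than in resting monocytes. In CCR2+ve monocytes 8 of the 10 genes were called, 7 lower and 1 higher, beside 28.6% of all genes tested (9.37% higher and 19.2% lower). In CCR1/2+ve monocytes 7 were called, 7 lower and 0 higher, beside 28.5% of all genes (9.16% higher and 19.4% lower). The median log2 fold change of the 10 genes was -2.32 for the CCR2+ve population and -2.49 for the CCR1/2+ve population, the latter also with Hoxa9 set at its bound, beside -0.10 and -0.25 over all genes tested. Cd34, Myb, Flt3, Kit, Myc and Hoxa9 fell in both.

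Cd34 was at 1.02, 0.279, 1.5 and 1.25 CPM in inflamed CCR2+ve libraries and at 0.436, 1.40 and 1.27 CPM in inflamed CCR1/2+ve libraries, which are numbered 2 to 4. All were below the lowest resting library of 8.63 CPM. The log2 change was -3.52 ± 0.35 in CCR2+ve (SE, edgeR adjusted p = 8.45e-07) and -4.08 ± 0.33 in CCR1/2+ve monocytes (SE, edgeR adjusted p = 1.21e-06). Myb was at 1.15, 2.18, 1.35 and 1.46 CPM in inflamed CCR2+ve libraries and at 1.45, 2.45 and 1.62 CPM in inflamed CCR1/2+ve libraries. Again no inflamed library reached the lowest resting library, at 7.11 CPM. The log2 change was -2.85 ± 0.28 (SE, edgeR adjusted p = 6.78e-07) and -3.60 ± 0.34 (SE, edgeR adjusted p = 8.96e-06).

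Flt3 was at 1.59, 2.74, 1.89 and 3.83 CPM in inflamed CCR2+ve libraries and at 1.07, 0.900 and 0.966 CPM in inflamed CCR1/2+ve libraries. Within each population the inflamed libraries were below the resting ones, and inflamed CCR2+ve replicate 4 overlapped only with resting CCR1/2+ve libraries. Flt3 fell by 13.3-fold in CCR2+ve monocytes (log2 change -3.73 ± 0.30, SE, edgeR adjusted p = 1.19e-07) and by 5.86-fold in CCR1/2+ve monocytes (-2.55 ± 0.29, SE, edgeR adjusted p = 2.16e-05). Kit had 1, 10, 0 and 1 reads in inflamed CCR2+ve libraries and was at 0.436, 0.450 and 0.439 CPM in inflamed CCR1/2+ve libraries. The inflamed CCR1/2+ve libraries were all below the lowest resting CCR1/2+ve library, whereas inflamed CCR2+ve replicate 2, at 0.465 CPM, overlapped with the resting CCR2+ve libraries. The log2 change of Kit was -2.59 ± 0.84 (SE, edgeR adjusted p = 0.0196) in CCR2+ve and -3.11 ± 0.71 (SE, edgeR adjusted p = 0.00496) in CCR1/2+ve monocytes. In CCR2+ve monocytes the call of Kit was lost without inflamed replicate 1 or 4 or resting replicate 1, with edgeR adjusted p from 0.0534 to 0.0843.

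Myc fell less. It was at 9.52, 10.0, 6.39 and 6.11 CPM in inflamed CCR2+ve libraries and at 4.51, 5.55 and 11.9 CPM in inflamed CCR1/2+ve libraries, all below the resting libraries. The log2 change was -1.60 ± 0.21 (SE, edgeR adjusted p = 1.4e-05) in CCR2+ve and -2.43 ± 0.40 (SE, edgeR adjusted p = 0.000958) in CCR1/2+ve monocytes. Hoxa9, the homeobox factor that MEIS1 partners with, had 4, 0, 1 and 0 reads in inflamed CCR2+ve libraries and 0, 0 and 0 in inflamed CCR1/2+ve libraries. In CCR1/2+ve monocytes 39 reads in 4 resting libraries stood against 0 reads in 3 inflamed libraries, so that Hoxa9 was at least 6.80-fold lower with the floor of 3 reads over the inflamed group (edgeR adjusted p = 0.0136). The log2 change in CCR2+ve monocytes was -2.66 ± 0.93 (SE, edgeR adjusted p = 0.029), and this call was lost without inflamed replicate 2, 3 or 4 or resting replicate 1 or 4, with edgeR adjusted p from 0.0583 to 0.0915. Sox4 had 3, 1, 1 and 1 reads in inflamed CCR2+ve libraries, a log2 change of -2.04 ± 0.78 (SE, edgeR adjusted p = 0.0427). This call was lost under DESeq2 (adjusted p = 0.0754) and without any 1 of inflamed replicates 2, 3 and 4 or resting replicates 1, 2 and 3 (edgeR adjusted p from 0.0819 to 0.166). In CCR1/2+ve monocytes 26 Sox4 reads in resting stood against 3 in inflamed libraries, a ratio of 4.54 (95% counting interval 1.39 to 23.4, edgeR adjusted p = 0.097).

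Meis1 and Adgrg1 differed from this pattern. Meis1 was at 11.9, 12.3, 11 and 10.2 CPM in inflamed CCR2+ve libraries, within the range of the resting CCR2+ve libraries, and the log2 change was -0.12 ± 0.18 (SE, edgeR adjusted p = 0.614). In inflamed CCR1/2+ve libraries it was at 9.06, 8.90 and 6.94 CPM, all above the resting CCR1/2+ve libraries. Its log2 change of 0.79 ± 0.20 (SE, edgeR adjusted p = 0.00627) was under the fold threshold. Adgrg1 had 23, 33, 42 and 26 reads in inflamed CCR2+ve libraries, more than any resting CCR2+ve library, and rose by a log2 change of 2.08 ± 0.55 (SE, edgeR adjusted p = 0.00588). In inflamed CCR1/2+ve libraries it had 15, 48 and 38 reads, which overlapped with the resting libraries (log2 change 0.44 ± 0.69, SE, edgeR adjusted p = 0.644). Egfl7 had 1, 7, 1 and 1 reads in inflamed CCR2+ve libraries (log2 change -1.41 ± 0.82, SE, edgeR adjusted p = 0.177) and 5, 7 and 8 in inflamed CCR1/2+ve libraries (-1.64 ± 0.47, SE, edgeR adjusted p = 0.0134). Without inflamed CCR2+ve replicate 2 the change in CCR2+ve monocytes was -2.63 (edgeR adjusted p = 0.0327). Mean Agpat2, which shares exon length with Egfl7, went from 15.4 to 2.90 CPM in CCR2+ve and from 12.5 to 3.27 CPM in CCR1/2+ve monocytes. The part of Agpat2 in the reads of Egfl7 was not tested.

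Groups did not overlap for 5 of the 10 genes in CCR2+ve monocytes (Cd34, Myb, Flt3, Myc and Adgrg1, each with exact permutation p = 0.029), beside 45.7% of all genes tested. In CCR1/2+ve monocytes they did not overlap for 8 of the 10 genes, all but Sox4 and Adgrg1, beside 50.1% of all genes. Each of the 8 had an exact permutation p of 0.057, the smallest that 3 against 4 libraries allow, which cannot pass 0.05.

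Other progenitor genes were tested in the same comparisons. Beside the lists that follow, 9.37% of all genes tested were called higher and 19.2% lower in CCR2+ve monocytes. In CCR1/2+ve monocytes the shares were 9.16% and 19.4%. Of 18 progenitor transcription factors, 9 fell and 1 rose in CCR2+ve monocytes, and 8 fell and 0 rose in CCR1/2+ve monocytes. Lyl1, a helix-loop-helix factor of stem cells, fell by 4.76 and by 5.20 on the log2 scale, and Cebpa, needed to form granulocyte and monocyte progenitors, fell by 2.24 in CCR2+ve monocytes. Surface genes went the other way more often, with 6 of 20 higher in each population and 1 lower in CCR2+ve monocytes. Csf2rb, the shared receptor chain for IL-3 and GM-CSF, rose by 1.41 and 1.85 on the log2 scale, and Csf3r, the G-CSF receptor, by 1.01 and 1.48. Of 18 genes of KIT and FLT3 signalling 3 rose and 0 fell in each population, among them Stat5a (1.28 and 1.20) and Pik3cd (1.80 and 1.68).

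Of 15 MYB partners and targets, 6 fell in each population, Cebpb by 3.17 and 2.19 on the log2 scale, and 1 and 2 rose. Of 11 MAX network genes, Max, the partner that MYC needs to bind DNA, rose by 1.81 and 2.16 and Zbtb17, which encodes MIZ1, by 1.87 and 1.33 on the log2 scale, while 2 and 1 genes fell. MYC target genes were split, with 2 higher and 2 lower of 19 in CCR2+ve monocytes and 1 higher and 3 lower in CCR1/2+ve monocytes. Srm, which makes spermidine, fell by 4.00 and fell by 4.68 on the log2 scale. Of 9 NOTCH pathway genes 3 fell in each population and 0 and 1 rose. Of 11 adhesion G protein-coupled receptors 5 fell in each and 1 and 2 rose. Hox and TALE cofactor genes had 0 higher and 1 lower of 12 in CCR2+ve monocytes and 1 higher and 2 lower in CCR1/2+ve monocytes, and 0 of 5 SOX factors were called in either.

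Markers of other cells moved with inflammation as well. The 10 erythroid genes summed to 58.5 to 298 CPM in resting and 1.72 to 4.79 CPM in inflamed monocytes, with 9 lower in CCR2+ve and 7 lower in CCR1/2+ve monocytes. Early granule genes fell for 3 of 6 in CCR2+ve and 5 of 6 in CCR1/2+ve monocytes, Mpo by 3.25 and 3.81 on the log2 scale. Dendritic cell genes, Flt3 among them, had 7 lower and 1 higher of 12 in CCR2+ve, and 4 lower and 1 higher in CCR1/2+ve monocytes. Proliferation genes had 5 higher and 2 lower of 19 in CCR2+ve, and 0 higher and 3 lower in CCR1/2+ve monocytes. Basophil and mast cell genes rose for 5 and 4 of 7, Fcer1a by 4.18 and 5.07 on the log2 scale, whereas Kit, which mast cells express, fell. The part of these lists in the changes of the 10 genes was not tested.

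A wider difference also lies between resting and inflamed libraries. Of the 18652 genes tested, 82 had at least 5 CPM in each of the 8 resting libraries and were more than 8-fold lower in every 1 of the 11 inflamed libraries, those labelled inflamed CCR1 included, and 2 genes met the reverse rule. Of the 10 genes, 0 met either rule, but few could. Only Cd34, Myb and Myc had at least 5 CPM in every resting library, and none of the 10 genes had it in every inflamed library. The rules therefore do not decide whether the 10 genes follow this wider difference. Among the 82, examples chosen after their values were seen are Cox5a, a subunit of the respiratory chain, with 109 to 134 CPM in resting and 2.40 to 9.78 CPM in inflamed libraries, and Spi1, the monocyte factor PU.1, with 468 to 818 and 23.3 to 40.5 CPM. Whether resting and inflamed libraries were prepared together is not given in the labels, so preparation and inflammation cannot be told apart.

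Between the inflamed populations, the question was whether the populations still differ. None of the 10 genes was called by edgeR (0 of 10, beside 0.145% of all genes tested, 27 genes), and 2 of the 10, Flt3 and Meis1, had an unadjusted p below 0.05, as had 8.98% of all genes. Flt3 was lower in CCR1/2+ve monocytes by a log2 difference of -1.38 ± 0.37 (SE, edgeR adjusted p = 0.208), and DESeq2 called it (-1.37, adjusted p = 0.0394). Meis1 was lower by -0.47 ± 0.18 (SE, edgeR adjusted p = 0.442). For both genes every inflamed CCR1/2+ve library was below every inflamed CCR2+ve library (exact permutation p = 0.057), and they were the only 2 of the 10 without overlap, beside 9.71% of all genes. Kit differed by 1.63 ± 0.91 and Egfl7 by 1.40 ± 0.84 on the log2 scale (SE, edgeR adjusted p = 0.637 and 0.668). Cd34 (0.03 ± 0.54) and Myb (0.24 ± 0.34) were not called either (SE, edgeR adjusted p = 1 and 0.874). Of the marker and pathway lists, only 1 early granule gene (Fcnb, 1.57) and 2 mature neutrophil genes (Ngp, 1.28, and Camp, 1.43) were called.

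The test of the difference itself, the interaction of population and inflammation, called 0 of the 10 genes, beside 0.397% of all genes tested (74 genes). Flt3 had an interaction of 1.14 ± 0.46 on the log2 scale (SE, edgeR adjusted p = 0.292) and Meis1 of 0.87 ± 0.26 (SE, edgeR adjusted p = 0.156). These were the 2 of the 10 genes with an unadjusted p below 0.05, as had 13% of all genes, and DESeq2 called Meis1 (0.93, adjusted p = 0.0257). For the remaining 8 genes the edgeR adjusted p was 0.437 or above. A p that misses the threshold does not show that inflammation acted alike in both populations, since the standard errors ran from 0.26 to 2.02 on the log2 scale. These comparisons share libraries with each other, so the values of 1 are not independent of those of the next.

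The libraries labelled inflamed CCR1 were set beside the inflamed monocytes last. Kit, Myb, Myc, Egfl7, Hoxa9 and Adgrg1 were higher there and Flt3 and Meis1 lower, against both inflamed populations, which makes 8 of the 10 genes in each comparison. The background was 31.3% of all genes called against CCR2+ve monocytes (14.4% higher and 16.8% lower) and 27.7% against CCR1/2+ve monocytes (13.2% higher and 14.6% lower). Medians of the 10 genes were 2.39 and 1.92 on the log2 scale, beside -0.01 and 0.00 over all genes. Groups did not overlap for 8 and 9 of the 10 genes, beside 45.3% and 47.4% of all genes.

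Kit was at 132, 155, 182 and 172 CPM in the libraries labelled inflamed CCR1, where no other library of the series exceeded 7.64 CPM. The log2 difference was 10.14 ± 0.39 against inflamed CCR2+ve (SE, edgeR adjusted p = 1.57e-10) and 8.48 ± 0.19 against inflamed CCR1/2+ve monocytes (SE, edgeR adjusted p = 1.29e-12). The first rests on 12 reads in all of the inflamed CCR2+ve libraries. Myb was at 99.1, 87.4, 88.9 and 89.8 CPM, and Myc at 109.7, 150.2, 101 and 101 CPM, in each case above every other library of the series. Against inflamed CCR2+ve monocytes the log2 difference was 5.90 ± 0.18 for Myb (SE, edgeR adjusted p = 7.55e-14) and 3.86 ± 0.19 for Myc (SE, edgeR adjusted p = 6.99e-11).

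Egfl7 had 38, 39, 43 and 25 reads, Hoxa9 9, 12, 20 and 6 reads and Adgrg1 86, 140, 78 and 82 reads in the libraries labelled inflamed CCR1. All were above the inflamed CCR2+ve libraries, which had at most 7, 4 and 42 reads. The log2 differences were 3.81 ± 0.56, 3.13 ± 0.83 and 1.64 ± 0.30 (SE, edgeR adjusted p = 2.13e-05, 0.00451 and 0.000206). Against inflamed CCR1/2+ve monocytes, with 0 reads, Hoxa9 was at least 11.4-fold higher. Agpat2, which shares exon length with Egfl7, had a mean of 68.9 CPM in the libraries labelled inflamed CCR1. Its means were 2.90 CPM in inflamed CCR2+ve and 3.27 CPM in inflamed CCR1/2+ve monocytes. Its part in the reads of Egfl7 was not tested.

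Flt3 was at 0.0455, 0.0452, 0.0462 and 0.471 CPM in the libraries labelled inflamed CCR1, the fourth standing above the others. Meis1 was at 0.0455, 0.226, 0.0924 and 0 CPM. Both lay below all other libraries of the series, and against inflamed CCR2+ve monocytes the log2 differences were -4.02 ± 0.60 for Flt3 and -6.85 ± 0.39 for Meis1 (SE, edgeR adjusted p = 3.08e-05 and 1.81e-10). Cd34 was at 1.41, 2.03, 2.54 and 1.84 CPM, a log2 difference of 0.95 ± 0.41 (SE, edgeR adjusted p = 0.0678). With replicate numbers as a block it was 1.03 (edgeR adjusted p = 0.0465) and was called. Without inflamed CCR2+ve replicate 3 it was 1.19 (edgeR adjusted p = 0.0359). Sox4 had 0, 2, 0 and 2 reads and was not called.

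Kit and Cd34, which are read together on stem and progenitor cells, thus had different orders over the 5 groups. These orders set resting beside inflamed libraries, and in steps between them inflammation and library preparation cannot be told apart. Kit ran from the libraries labelled inflamed CCR1 (mean 159.9 ± 21.9 CPM, SD, n = 4) to resting CCR1/2+ve (3.42 ± 2.90, SD, n = 4), resting CCR2+ve (0.800 ± 0.520, SD, n = 4), inflamed CCR1/2+ve (0.442 ± 0.00722, SD, n = 3) and inflamed CCR2+ve monocytes (0.138 ± 0.219, SD, n = 4), and from the second group on each overlapped with the next. Cd34 ran from resting CCR1/2+ve (16.1 ± 2.48 CPM, SD, n = 4) and resting CCR2+ve monocytes (11.1 ± 2.89, SD, n = 4), which overlapped, to the libraries labelled inflamed CCR1 (1.96 ± 0.469, SD, n = 4) and the 2 inflamed populations (1.04 ± 0.524, SD, n = 3, and 1.01 ± 0.526, SD, n = 4), which overlapped with each other. The order of Meis1 was resting CCR2+ve (11.8 ± 3.48 CPM, SD, n = 4), inflamed CCR2+ve (11.3 ± 0.954, SD, n = 4), inflamed CCR1/2+ve (8.30 ± 1.18, SD, n = 3), resting CCR1/2+ve (4.37 ± 0.429, SD, n = 4) and the libraries labelled inflamed CCR1 (0.0910 ± 0.0976, SD, n = 4), with overlap only between the first pair.

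Beside the lists that follow, 14.4% of all genes tested were called higher and 16.8% lower against inflamed CCR2+ve monocytes. Against inflamed CCR1/2+ve monocytes the shares were 13.2% and 14.6%. In the libraries labelled inflamed CCR1, 6 of 18 progenitor transcription factors were higher and 1 lower than in inflamed CCR2+ve monocytes. Compared with inflamed CCR1/2+ve monocytes, 7 were higher and 1 lower there. Erg, a factor of stem cells, had a mean of 59.3 CPM against 0.12 CPM or less in the inflamed monocytes, Hlf 17.6 against 0.03 or less, and Gfi1, a repressor in neutrophil precursors, 23.1 against 0.04 or less. Of 20 surface genes, 4 and 6 were higher in the 2 comparisons and 7 and 6 lower, Prom1 having a mean of 416 CPM. Of 18 genes of KIT and FLT3 signalling 0 were higher and 7 and 6 lower, and of 19 MYC target genes 7 and 5 were higher and 0 lower, Tfrc, the transferrin receptor, by 4.01 on the log2 scale against CCR2+ve monocytes. MYB partners and targets had 6 and 5 higher and 4 and 3 lower of 15. MAX network genes had 2 higher in each and 3 and 1 lower of 11, NOTCH pathway genes 1 higher and 1 lower of 9 in each, and adhesion G protein-coupled receptors 2 higher in each and 6 and 5 lower of 11. Hox and TALE cofactors had 1 and 2 higher and 2 and 1 lower of 12, and SOX factors 2 and 1 higher and 1 lower of 5.

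Early granule genes were higher for all 6 tested against both populations, with medians of 7.05 and 5.54 on the log2 scale, and mature neutrophil genes for 10 and 9 of 12. Monocyte genes were lower for 11 of 13 in each, and proliferation genes higher for 12 and 4 of 19. Genes of basophils and mast cells, the latter a lineage that expresses Kit, summed to 869 to 1017 CPM. In inflamed monocytes they summed to 110 to 247 CPM. Of 7 tested, 2 were higher, Hdc by 6.33 and Ms4a2 by 1.83 on the log2 scale against CCR2+ve monocytes. Most of the sum was Hdc, with means of 720 CPM in the libraries labelled inflamed CCR1, 8.96 CPM in inflamed CCR2+ve and 9.46 CPM in inflamed CCR1/2+ve monocytes. In the same order, means were 185, 156 and 142 CPM for Prss34, 9.27, 7.84 and 6.81 CPM for Cpa3 and 4.98, 3.97 and 4.63 CPM for Fcer1a. The mast cell gene Tpsb2 had 0 reads in the libraries labelled inflamed CCR1. The part of all the cell types listed here in the levels of Kit, Myb, Myc, Egfl7, Hoxa9 and Adgrg1 was not tested.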

How the data were processed

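The deposited table held raw read counts per gene, which the authors made from paired-end NextSeq2000 reads of low-input libraries with fastp, STAR 2.7.10a (submitters' processing notes), GRCm38 and Ensembl annotation. The counts are not normalized and their strand is not recorded. Of 20 columns, 1 matched no sample and was not used. No row of the 2532 annotated genes of chromosome 14 was given (0), and chromosomes 15 to 19 were held in part, so these genes were not analysed here.

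For each comparison only the libraries of the groups compared entered the fit, made with edgeR 4.0.16 under R 4.3.3 (TMM, robust dispersions, two-sided quasi-likelihood F test, Benjamini-Hochberg adjustment over 18652 genes) and genes were called where the adjusted p was below 0.05 and the log2 fold change was 1 or more in either direction. The interaction used the 15 monocyte libraries without a fold threshold. The standard error was taken as the log2 fold change over the square root of F. The study used DESeq2, run here (1.42.0) as an alternative beside its size factors, no filter, filterByExpr, all 19 libraries in 1 fit, a replicate block, no fold threshold and each library left out. Scripts were tested on simulated data with known changes. These were all well above the fold threshold, so the shares found do not hold for differences near it. In the setting of the resting comparison edgeR found 69.7% of the changes, and 9.80% of its calls were false, above the adjusted p threshold of 0.05. In that of the inflamed populations it found 59.7%, and 5.79% of its calls were false. Exact permutation tests were two-sided, on CPM, and took no account of replicate numbers.

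Replicate numbers were checked for pairing by correlating deviations from group means over 8878 genes. Between the resting groups, same-numbered libraries correlated at 0.288 to 0.536 and others at -0.374 to 0.182. Between libraries labelled inflamed CCR1 and inflamed CCR2 the values were 0.108 to 0.206 and -0.202 to 0.080. The numbers were taken as pairs in these 2 comparisons, on this correlation alone. The main tests did not use this pairing, so their standard errors and p-values are those of unpaired libraries. Only the fit with a replicate block used it.

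The 10 genes, and 21 other lists of pathway and marker genes, were chosen with earlier results of these data known; 7 listed genes had no counts. All 10 genes are named, and from each list up to 3 called genes with the smallest p, plus defining markers. Positions and exon overlaps are from GENCODE M21 and promoters from RefSeq.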

Additional observations from a re-analysis of the deposited data

Results flagged for a closer look

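Over the 40 groups of 4 libraries (10 genes in 4 groups), 6 had a library that stood apart from the other 3 by Dixon's 95% criterion. For independent, normally distributed values chance gives about 1 in 20. That rate cannot be applied here, since the 10 genes share libraries and several of the values rest on few reads. Kit, Egfl7 and Sox4 had 12, 10 and 6 reads over the inflamed CCR2+ve libraries, and Flt3 had 13 over those labelled inflamed CCR1. Inflamed CCR2+ve replicate 2 was at 0.465 CPM for Kit, where the others were at 0 to 0.0443 CPM, and at 0.325 CPM for Egfl7, where the others were at 0.043 to 0.0484 CPM. Inflamed CCR2+ve replicate 1 was at 0.133 CPM for Sox4, with the others at 0.043 to 0.0484 CPM. Resting CCR1/2+ve replicate 2 was at 5.01 CPM for Meis1, with the others at 4.12 to 4.20 CPM. Of the libraries labelled inflamed CCR1, replicate 4 was at 0.471 CPM for Flt3, with the others at 0.0452 to 0.0462 CPM, and replicate 2 was at 6.33 CPM for Adgrg1, with the others at 3.60 to 3.91 CPM.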

How the results depend on the processing

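Read depth limits Sox4, Hoxa9, Egfl7 and Adgrg1 most, since they had few reads per library. Without the fold threshold, the genes called were 3149 in the resting comparison, 8921 and 8586 between inflamed and resting CCR2+ve and CCR1/2+ve monocytes, and 8972 and 8061 between the libraries labelled inflamed CCR1 and the inflamed CCR2+ve and inflamed CCR1/2+ve monocytes. Between the inflamed populations, 27 genes became 106 with DESeq2, 53 without a filter, 53 with all 19 libraries and 80 with a replicate block. For the interaction, 74 genes became 545 with DESeq2, 113 with RLE size factors, 145 without a filter, 122 with filterByExpr, 187 with all 19 libraries and 222 with a replicate block. The cause was not tested. Of the 10 genes, 3 were called in the resting comparison without a filter and 3 with both libraries numbered 2 left out, and DESeq2 called 1 between the inflamed populations and 1 in the interaction. With a replicate block the direction turned for Adgrg1 between the inflamed populations (-0.0537), Sox4 in the libraries labelled inflamed CCR1 against CCR1/2+ve (0.32) and Kit in the interaction (0.0678). In comparisons whose numbers were not taken as pairs, the block ended 4 calls, and the labels do not say whether these numbers pair the samples. The calls were Sox4 in inflamed against resting CCR2+ve monocytes, and Myc and Egfl7 in inflamed against resting CCR1/2+ve monocytes. The last was Adgrg1 in the libraries labelled inflamed CCR1 against CCR1/2+ve monocytes. The block changed no other call of the 10 genes than these and those given with the results.

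Leaving out 1 library at a time, the genes called ranged from 518 to 1013 in the resting comparison, 15 to 42 between the inflamed populations and 0 to 253 in the interaction (0 without inflamed CCR1/2+ve replicate 3, 253 without inflamed CCR2+ve replicate 4). Of the 10 genes, 2 to 5 were called in the resting comparison and 5 to 7 between inflamed and resting CCR2+ve monocytes. Log2 values that changed sign ranged, between the inflamed populations, from -0.26 to 0.50 for Adgrg1, -0.28 to 0.39 for Cd34, -0.0203 to 0.46 for Myb, -0.67 to 0.13 for Myc and -1.37 to 0.12 for Sox4. In the interaction they ranged from -0.93 to 0.96 for Egfl7, -1.0 to 1.45 for Kit and -1.06 to 0.41 for Sox4. In the resting comparison they ranged from -0.68 to 0.19 for Hoxa9 and -0.63 to 0.0702 for Sox4, and for Meis1 in inflamed against resting CCR2+ve monocytes from -0.16 to 0.17. For Sox4 in the libraries labelled inflamed CCR1 they ranged from -1.02 to 0.0048 against CCR2+ve and -0.62 to 0.85 against CCR1/2+ve monocytes. None of these had been called. Scaling by library size alone shifted every log2 change by -0.33 in inflamed against resting CCR1/2+ve, -0.14 in inflamed against resting CCR2+ve and 0.14 in resting CCR1/2+ve against CCR2+ve monocytes, and turned no direction that was called.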

Other observations

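Genes whose levels ran most like those of the 6 better-expressed genes were sought among 8878 genes with a mean of at least 5 CPM, by Pearson's r of log2 CPM over the 19 libraries. The libraries share their groups, and those labelled inflamed CCR1 lie far from the rest for most of these genes, so each r is a description. Kit ran closest to Nkg7, Prss57 and Adgrg3 (r = 0.98 each), Nkg7 having a mean of 48.4 CPM in resting CCR1/2+ve, 8.33 CPM in resting CCR2+ve and 1562 CPM in the libraries labelled inflamed CCR1. Meis1 ran closest to Slfn5, Ccr2 and Ece1 (r = 0.99 each), of which Ccr2 is the receptor that the sort used. Flt3 ran closest to Csnk1e, Klf3 and Bri3 (r = 0.97 each), Cd34 to Cggbp1, Raly and Yeats4 (r = 0.97 each), Myb to Ttc3, Gm41073 and Rev1 (r = 0.98 each), and Myc to Kcnip3 (r = 0.98), G0s2 and Stk16 (r = 0.97 each). Among the 10 genes themselves, r was 0.97 between Myb and Myc, 0.91 between Kit and Myb and -0.93 between Kit and Meis1.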
